A study of Homo sapiens with 12 samples.

Results

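Phase II enzymes join a polar group to a drug, hormone or reactive compound so that it can leave the cell. Their genes were followed here in 2 human hepatocellular carcinoma (HCC) lines, Huh7 and HepG2, as parental cells and as sorafenib-resistant cells. The rule takes members by gene symbol: the UDP-glucuronosyltransferases UGT1A, UGT2A and UGT2B, the cytosolic sulfotransferases (SULT) and the glutathione S-transferases (GSTA, GSTK, GSTM, GSTO, GSTP, GSTT and the microsomal MGST), with pseudogenes and GSTZ1 left out. The rule found 50 genes of the 27249 with an Ensembl identifier: 19 UGT, 12 SULT and 19 GST genes. GSTT1 was not analysed here.

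The 4 groups were parental Huh7, resistant Huh7, parental HepG2 and resistant HepG2, each with 3 samples and each labelled as wild type. Resistant cells had been exposed to sorafenib over 8 months, from a first dose of 10 μmol that was then raised, and parental cells were the sensitive controls. The labels do not say how many times a line was selected, and nothing says that the 3 samples of a group were separate cultures, so p-values measure only the spread between these samples, which may be technical. Values are FPKM (fragments scaled to exon length and to the size of the library), a unit that the sources do not name and that was recognised from the values. In such bulk samples fewer expressing cells and less RNA per cell cannot be told apart. Of the 50 members, 24 averaged at least 1 FPKM in a group and 26 did not, and 7 had no more than 3 reads in any sample.

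UGT enzymes sit in the endoplasmic reticulum and transfer glucuronic acid from UDP-glucuronic acid. The UGT1A genes are made from 1 locus by joining alternative first exons to shared exons, whereas UGT2B enzymes have separate genes on chromosome 4. SULT enzymes transfer sulfate from PAPS to steroids and phenols, and GST enzymes attach glutathione to electrophiles. Liver is the main organ of these reactions, and sorafenib itself is glucuronidated by UGT1A9.

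For 42 of the 50 members, RefSeq (GRCh38.p14) gave a promoter window, of which the 250 bases before the transcription start are used. That of GSTP1, the most abundant member in Huh7 but not in HepG2, is shown because its level rose in resistant Huh7 cells. It lies at chr11:67583562-67583811 on the plus strand, and the capitals mark a match to TGACNNNGC, the core of the antioxidant response element.

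GSTP1: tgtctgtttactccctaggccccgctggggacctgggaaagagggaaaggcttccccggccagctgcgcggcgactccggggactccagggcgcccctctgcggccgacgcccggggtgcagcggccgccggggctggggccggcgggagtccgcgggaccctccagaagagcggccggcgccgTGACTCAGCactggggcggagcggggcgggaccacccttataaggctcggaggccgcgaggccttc

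Searched on both strands, this motif was in 10.9% of all 35116 promoter windows and in those of 10 of the 42 members: GSTA4, GSTM1, GSTM5, GSTO1, GSTP1, SULT1C2, UGT1A5, UGT1A6, UGT2B10 and UGT2B11. A match describes letters only. The GSTP1 window held 28 CpG dinucleotides against a median of 11 over all windows.

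The next pair is shown because nearly the same promoter letters accompanied different changes. GSTA1 (chr6:52803817-52804066) and GSTA2 (chr6:52763476-52763725), both on the minus strand, had 243 of 250 bases in common, and capitals mark the 7 that differ.

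GSTA1: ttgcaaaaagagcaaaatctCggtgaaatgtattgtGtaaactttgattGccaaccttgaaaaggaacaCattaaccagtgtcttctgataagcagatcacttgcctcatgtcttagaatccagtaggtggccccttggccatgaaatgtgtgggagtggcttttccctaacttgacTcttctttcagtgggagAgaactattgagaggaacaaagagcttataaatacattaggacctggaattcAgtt
GSTA2: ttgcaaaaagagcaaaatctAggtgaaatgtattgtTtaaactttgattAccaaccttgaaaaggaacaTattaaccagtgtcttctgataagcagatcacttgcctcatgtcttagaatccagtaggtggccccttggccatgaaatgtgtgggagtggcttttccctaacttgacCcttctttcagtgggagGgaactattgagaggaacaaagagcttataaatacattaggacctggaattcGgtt

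UGT2B10 (chr4:68815744-68815993, plus strand) and UGT2B11 (chr4:69214749-69214998, minus strand) shared 229 of 250 bases in an alignment with gaps. They are shown because their order of levels was opposite in the 2 lines. Capitals mark bases without a match in the other window.

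UGT2B10: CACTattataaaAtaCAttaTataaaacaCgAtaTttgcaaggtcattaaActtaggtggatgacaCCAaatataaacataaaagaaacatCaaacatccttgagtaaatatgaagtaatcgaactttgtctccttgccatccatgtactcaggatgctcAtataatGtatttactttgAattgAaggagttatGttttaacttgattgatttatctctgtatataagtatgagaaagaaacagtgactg
UGT2B11: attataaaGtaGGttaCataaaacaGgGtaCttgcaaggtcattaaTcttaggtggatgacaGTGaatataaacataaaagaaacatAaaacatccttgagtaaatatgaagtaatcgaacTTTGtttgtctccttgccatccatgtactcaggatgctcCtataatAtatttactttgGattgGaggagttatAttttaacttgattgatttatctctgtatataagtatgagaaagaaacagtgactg

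The values of a sample rested on 12290098 to 19286113 reads, calculated back from the steps of the values, with the fewest in parental HepG2 cells. The 12 hepatocyte lineage markers all averaged at least 1 FPKM in each group. Their summed level was 8469 to 10329 FPKM in parental and 6792 to 7100 FPKM in resistant Huh7 cells, and 7053 to 8071 against 6708 to 7343 FPKM in HepG2 cells. The bile duct list, with KRT7 and CFTR under 1 FPKM in each group, summed to 83.6 to 107 FPKM in parental and 142 to 154 FPKM in resistant Huh7 cells, and to 169 to 210 against 132 to 151 FPKM in HepG2 cells. The part of these shifts in the results was not tested. Of the leukocyte list, 1 of 6 markers averaged at least 1 FPKM in resistant Huh7 cells and 2 of 6 in the other groups, with summed levels of 1.97 to 4.88 FPKM over all samples and CD3E, CD68 and LST1 under 1 FPKM throughout. Of the endothelial list, 1 of 5 did so in each group (sums of 1.57 to 3.83 FPKM), with CDH5 and VWF under 1 FPKM. Of the fibroblast or stellate list, 1 of 7 did so in Huh7 and 2 of 7 in HepG2, with sums of 3.58 to 5.48 FPKM in Huh7 and 15.4 to 26.2 FPKM in HepG2, and COL1A1, COL1A2, COL3A1, DCN and LUM were under 1 FPKM in each group. In Huh7 the log2 fold change of a gene rose with its GC content (Spearman's rho 0.63 across 12545 genes, which are not independent), and in HepG2 it did not (0.03 across 11756 genes). Values after removal of this trend are therefore given below wherever they end a call.

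Parental cells of the 2 lines differed widely in these genes. GSTP1, the pi class enzyme, averaged 409.8 ± 75.4 FPKM in parental Huh7 and 3.37 ± 0.347 FPKM in parental HepG2 cells (mean ± SD, n = 3, as for all means here), a 122-fold difference. SULT1C4 (20.9 ± 0.536 against 1.03 ± 0.379 FPKM), SULT1C2 (3.51 ± 0.307 against 0.448 ± 0.106 FPKM) and MGST1 (6.00 ± 1.64 against 1.64 ± 0.244 FPKM) were also higher in Huh7. Higher in HepG2 were UGT2B10 (27.4 ± 7.34 against 0.410 ± 0.191 FPKM), UGT2A3 (24.3 ± 4.33 against 1.14 ± 0.267 FPKM), UGT2B7 (16.2 ± 4.50 against 3.11 ± 0.943 FPKM) and SULT1A2 (6.69 ± 1.83 against 0.339 ± 0.0693 FPKM). With limma on log2(FPKM + 1) across the 12 samples, 17 of the 24 members tested were called, 9 higher and 8 lower in Huh7, at an adjusted p under 0.05 and a log2 fold change beyond 1. Among all 13800 genes tested 30.2% were called, 18.3% higher and 11.9% lower in Huh7. The filter took a gene that reached 1 FPKM in any 3 of the 12 samples, so that a high level in 1 line was enough. Of the called members, GSTM1, SULT1C2 and SULT1C3 reached 1 FPKM in no parental HepG2 sample. SULT1A2 and UGT2B10 reached it in no parental Huh7 sample. The calls of GSTA2, MGST1, SULT1E1 and UGT2B4 were lost with the GC trend removed, at 0.87, 0.95, 0.73 and 0.70.

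GSTM1, a mu class enzyme whose gene is absent from many human genomes, had 184 to 452 reads in each Huh7 sample and 0 to 3 reads in each HepG2 sample. GSTA1 started from like levels, at 6.41 ± 1.20 FPKM in parental Huh7 and 5.78 ± 0.782 FPKM in parental HepG2 cells. GSTA4 averaged 21.8 ± 1.08 and 25.7 ± 1.93 FPKM there, without overlap (20.6 to 22.8 against 23.7 to 27.5 FPKM). Neither passed the test between the parental lines (limma adjusted p = 0.484 and 0.085).

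Summed over members, GSTP was the most abundant family in Huh7, and SULT and GSTO led in HepG2 together with UGT2. The UGT2 sum was 20.0, 22.8 and 24.8 FPKM in parental and 50.2, 70.2 and 55.7 FPKM in resistant Huh7 cells, without overlap. UGT2B4 made up 66.2% of it in parental and 85.6% in resistant Huh7 cells, and its own mean went from 14.9 to 50.2 FPKM, so that the rise of the sum was nearly all that of this gene. In HepG2 the UGT2 sum overlapped, at 69.8, 61.1 and 96.2 FPKM in parental and 90.4, 66.0 and 77.9 FPKM in resistant cells. The SULT sum rested on SULT2A1 in HepG2, where that gene made up 76.4% of it in parental and 88.3% in resistant cells. The GSTA sum changed its leading member in Huh7, from GSTA4 with 61.5% in parental to GSTA1 with 46.9% in resistant cells.

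**Figure D1:**
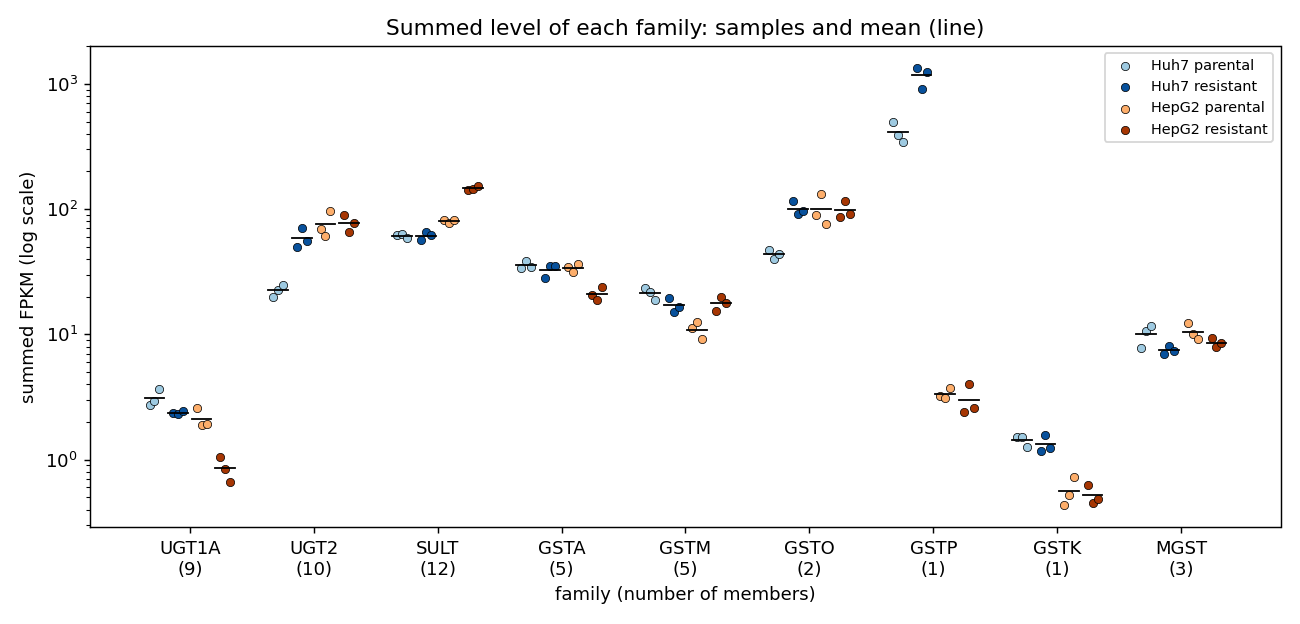
Summed FPKM of each family on a log scale, with the 3 samples of each group as points, the mean as a line and the number of members in parentheses (GSTT, at or near 0, is left out). GSTP lies between 345 and 1342 FPKM in Huh7 and between 2.41 and 4.01 FPKM in HepG2, and the UGT2 sum of Huh7 has a mean of 22.5 FPKM in parental and 58.7 FPKM in resistant cells, of which UGT2B4 alone makes up 66.2% and 85.6%.

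Resistant and parental cells were then compared within each line. In Huh7, 22 of the 50 members reached 1 FPKM in 3 samples and were tested, and 9 were called. GSTA1, GSTO1, GSTP1, SULT1A1, SULT1A2 and UGT2B4 rose, and GSTA4, GSTM3 and SULT1C3 fell. Among all 12554 genes tested in Huh7, 22.6% were called, 8.59% higher and 14.0% lower. A further 7 members had an adjusted p under 0.05 with a smaller change, 5 higher and 2 lower, and 6 of the 22 did not pass it. Of all genes, called ones included, 70.1% had an adjusted p under 0.05. Groups without overlap were seen in 74.5% of all genes and in 16 of the 22 members. Of the 22, GSTO2, SULT1A2 and SULT1C3 passed the filter through 1 group only. The median log2 fold change of the tested members was 0.35, beside -0.04 over all genes tested.

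In HepG2, 16 members were tested and 3 were called: SULT2A1 rose, and GSTA1 and UGT2B4 fell. Here 6.27% of all 11762 genes tested were called, 3.29% higher and 2.98% lower. A further 3 members had an adjusted p under 0.05 with a smaller change, and 10 of the 16 did not pass it. Of all genes, called ones included, 20.0% had an adjusted p under 0.05. Groups without overlap were seen in 40.4% of all genes and in 8 of the 16 members. The median of the tested members was -0.04 on the log2 scale, beside 0.12 over all genes. GSTA1 and UGT2B4 were thus called in each line, in opposite directions.

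The difference between the 2 lines (the log2 change in Huh7 minus that in HepG2) was called for 8 of 24 members tested, against 28.8% of all 13800 genes, 10.6% positive and 18.2% negative. It was positive for UGT2B4, GSTA1, SULT1A2, GSTP1, GSTO1 and SULT1E1 and negative for GSTM3 and SULT1C3. SULT1C3 had at most 1 read in any HepG2 sample. The comparisons share parental samples with each other.

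**Figure D2:**
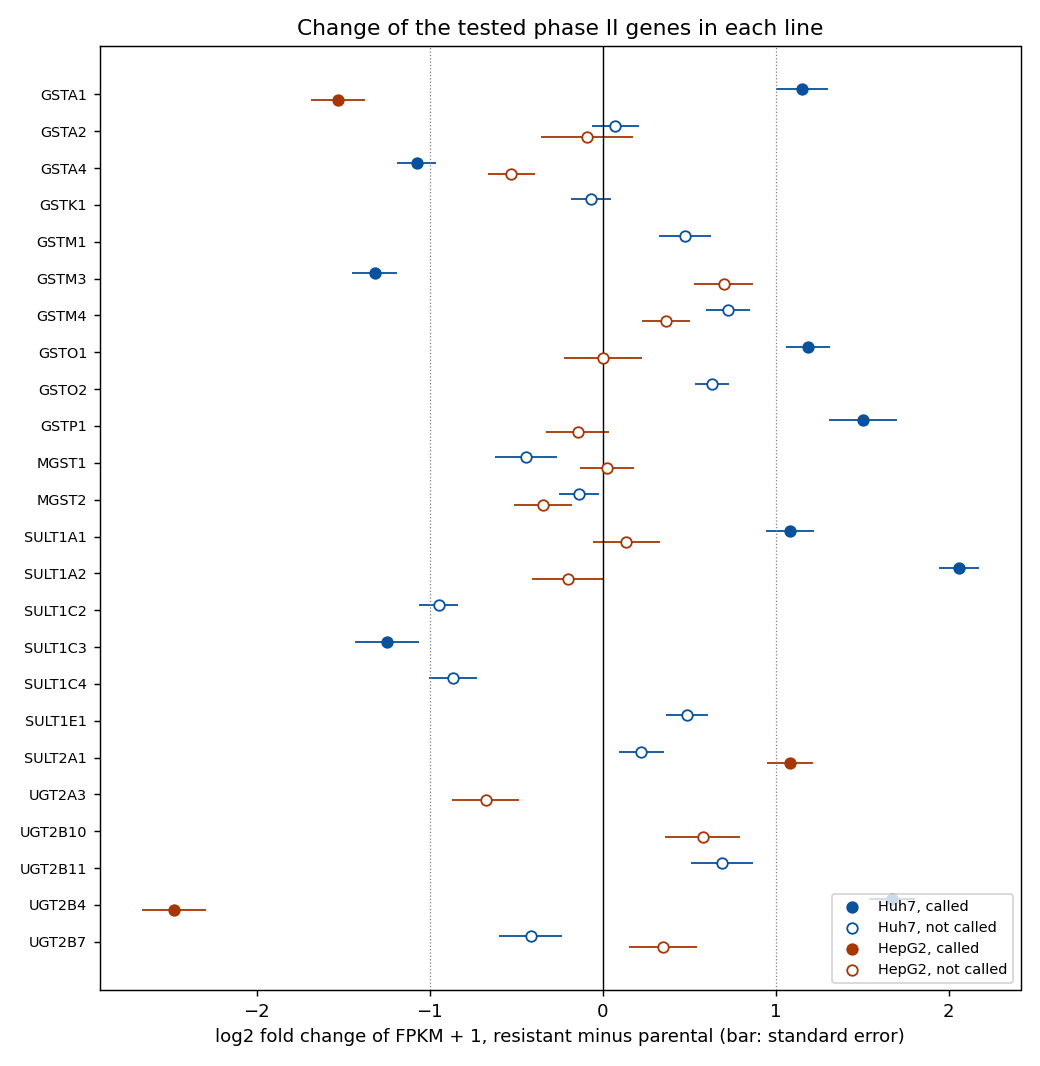
Log2 fold change of FPKM + 1, resistant minus parental, for each member tested in Huh7 (blue) or HepG2 (orange), with its standard error. Filled points are called and dotted lines mark a log2 fold change of 1 in either direction; GSTA1 and UGT2B4 are filled on opposite sides of 0.

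UGT2B4, which glucuronidates bile acids and catechol estrogens, showed the widest split between the lines. It lies at chr4:69480165-69526014 on the minus strand. Its level was 14.2, 14.8 and 15.7 FPKM in parental Huh7 and 42.7, 59.8 and 48.2 FPKM in resistant Huh7 cells. In HepG2 it was 5.74, 5.81 and 9.08 FPKM in parental and 0.353, 0.393 and 0.417 FPKM in resistant cells, the latter resting on 15 to 18 reads a sample. In each line the groups were apart. UGT2B4 was 3.37-fold higher in resistant Huh7 cells (log2 fold change 1.67 ± 0.134 SE, limma adjusted p = 3.37e-05) and 17.7-fold lower in resistant HepG2 cells (-2.48 ± 0.185, adjusted p = 0.000211). The difference between the lines was 4.15 ± 0.228 (adjusted p = 3.57e-07). In HepG2 it passed the filter through the parental samples only.

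Other UGT2 genes on chromosome 4 were not called in HepG2. UGT2B10, a nicotine N-glucuronidating enzyme, had 27.4 ± 7.34 FPKM in parental and 41.0 ± 7.60 FPKM in resistant HepG2 cells, and UGT2B7, which acts on morphine and steroids, had 16.2 ± 4.50 and 20.5 ± 2.34 FPKM. Both pairs of groups overlapped, and neither gene passed the test (adjusted p = 0.0959 and 0.238). UGT2A3 had 24.3 ± 4.33 FPKM in parental and 14.9 ± 3.30 FPKM in resistant cells (log2 fold change -0.68 ± 0.192, adjusted p = 0.041), short of the fold threshold. In Huh7, UGT2B11 had 2.21 ± 0.453 FPKM in parental and 4.23 ± 1.16 FPKM in resistant cells (0.69 ± 0.178, adjusted p = 0.00786), also short of it, and with the GC trend removed it was called, at 1.60. UGT2A3 went from 1.14 to 0.370 FPKM and UGT2B10 from 0.410 to 1.22 FPKM in resistant Huh7 cells, without overlap. Both were under the filter there. A limma fit of all genes without a filter gave -0.64 (adjusted p = 0.0083) and 0.66 (adjusted p = 0.014). By that fit 40.0% of all genes had an adjusted p under 0.05. UGT2B7 had 3.11 and 2.04 FPKM in Huh7, with overlap (limma adjusted p = 0.0707). In parental cells UGT2B11 exceeded UGT2B10 in Huh7 (2.21 against 0.410 FPKM), whereas UGT2B10 exceeded UGT2B11 in HepG2 (27.4 against 0.796 FPKM), the pair whose promoters are printed above. UGT2A1, UGT2A2, UGT2B15, UGT2B17 and UGT2B28 averaged under 1 FPKM in each group.

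The 9 UGT1A genes (chr2:233617645-233773310, plus strand) also averaged under 1 FPKM in each group and none was tested with the filter. UGT1A9 had 0.554, 0.467 and 0.461 FPKM in parental and 0.153, 0.279 and 0.0653 FPKM in resistant Huh7 cells, which is 18 to 24 and 3 to 13 reads a sample. In HepG2 it had 0 to 10 reads a sample in parental and 0 to 7 in resistant cells. Along the locus the Huh7 values split by position. The 4 genes with the most upstream first exons, UGT1A8, UGT1A10, UGT1A9 and UGT1A7, were lower in all 3 resistant samples than in any parental sample. UGT1A3 and UGT1A1, whose first exons lie nearest to the shared exons, were higher in all 3. The groups of UGT1A6, UGT1A5 and UGT1A4, which lie between, overlapped. Groups without overlap were seen in 47.4% of all genes above 0 in a sample in Huh7 and in 24.5% in HepG2. UGT1A10 averaged 0.864 ± 0.167 FPKM in parental and 0.277 ± 0.077 FPKM in resistant Huh7 cells, and UGT1A1, the bilirubin-conjugating enzyme, averaged 0.239 ± 0.0465 and 0.813 ± 0.141 FPKM.

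In a limma fit of all genes without a filter, these 6 genes had adjusted p-values of 0.00131 to 0.0203 in Huh7, where 40.0% of all 25712 genes fitted had an adjusted p under 0.05. The changes were -0.54 for UGT1A10, -0.37 for UGT1A8, -0.36 for UGT1A9, -0.27 for UGT1A7, 0.33 for UGT1A3 and 0.55 for UGT1A1 on the scale of log2(FPKM + 1), which understates the change of low genes. GC contents were 44.4% to 45.6% for the 4 upstream genes and 45.8% and 46.2% for UGT1A3 and UGT1A1. They were 46.3% to 47.6% for UGT1A4, UGT1A5 and UGT1A6.

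UGT1A3, which conjugates bile acids, moved the other way in HepG2. It had 1.64, 0.654 and 0.592 FPKM in parental and 0.05, 0.0231 and 0.0983 FPKM in resistant HepG2 cells, that is 19 to 51 against 1 to 4 reads a sample. The groups did not overlap, but the fit without a filter gave -0.85 ± 0.20 with an adjusted p of 0.0614. UGT1A6, which acts on small phenols, averaged 0.442 ± 0.0812 FPKM in parental and 0.159 ± 0.0609 FPKM in resistant HepG2 cells (-0.31, adjusted p = 0.0491). In HepG2, 6.53% of all 24827 genes fitted had an adjusted p under 0.05. Between 40.6% and 80.0% of the exon bases of a UGT1A gene are shared with other genes on the same strand, and how shared reads were counted is not given in the sources used here, so the split between these genes is uncertain.

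**Figure D3:**
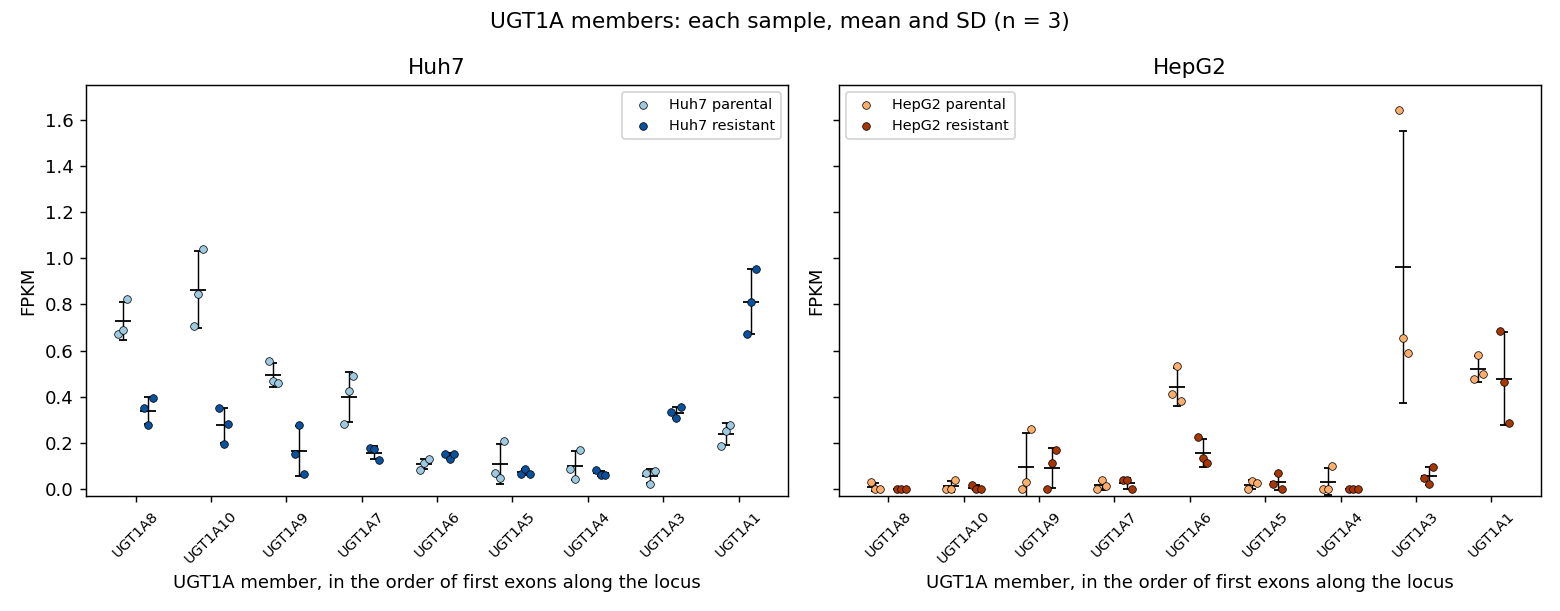
FPKM of the 9 UGT1A genes in the order of their first exons along the locus, in Huh7 (left) and HepG2 (right), with 3 samples a group as points and mean and SD as bars. In Huh7 the parental points lie above the resistant ones at UGT1A8, UGT1A10, UGT1A9 and UGT1A7 and below them at UGT1A3 and UGT1A1; in HepG2 the gap is at UGT1A3 and UGT1A6.

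Among the sulfotransferases, SULT2A1, which sulfates DHEA and bile acids, was the most abundant. Its level (chr19:47870466-47886397, minus strand) was 64.2, 55.2 and 63.8 FPKM in parental and 128, 126 and 137 FPKM in resistant HepG2 cells. In Huh7 it was 29.5, 32.3 and 24.5 FPKM in parental and 30.1, 36.0 and 34.7 FPKM in resistant cells. All 3 resistant HepG2 samples lay above the parental ones, whereas the Huh7 groups overlapped. SULT2A1 was 2.13-fold higher in resistant HepG2 cells (1.08 ± 0.133 SE, adjusted p = 0.00168). The rise kept its direction but fell under the fold threshold with upper-quartile scaling (0.94) and with median-ratio scaling (0.97), and these scalings moved the median of all genes in HepG2 from 0.12 to 0.0045 and 0.03. In Huh7 the change was 0.22 ± 0.13 (adjusted p = 0.156), and the difference between the lines, -0.86 ± 0.169 (adjusted p = 0.00136), was short of the fold threshold.

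SULT1A1 and SULT1A2, phenol sulfotransferases with neighbouring genes on chromosome 16 (chr16:28605196-28623625 and chr16:28591943-28597109, minus strand), rose together in Huh7. SULT1A2 had 0.269, 0.339 and 0.408 FPKM in parental and 5.19, 4.17 and 4.42 FPKM in resistant Huh7 cells, which is 11 to 15 reads against 183 to 224 reads a sample. In HepG2 it had 4.82, 8.48 and 6.76 FPKM in parental and 4.54, 6.08 and 6.21 FPKM in resistant cells. The resistant Huh7 samples thus stood within or just under the range of HepG2, where the groups overlapped. The increase in Huh7 was 13.5-fold (2.06 ± 0.115 SE, adjusted p = 7.56e-06), and the difference from HepG2 was 2.26 ± 0.241 (adjusted p = 2.93e-05). In Huh7 it passed the filter through the resistant samples only.

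SULT1A1 had 1.71, 1.09 and 1.33 FPKM in parental and 4.21, 3.43 and 4.44 FPKM in resistant Huh7 cells, and 8.85, 10.6 and 7.30 against 8.07, 12.4 and 9.36 FPKM in HepG2. The Huh7 groups were apart, by 2.93-fold (1.08 ± 0.138, adjusted p = 0.00022), and the HepG2 groups overlapped. The difference between the lines was 0.95 ± 0.243 (adjusted p = 0.00636), short of the fold threshold; 8 of 21 alternatives called it, among them both other scalings, and its values ranged from 0.55 to 1.40. The call in Huh7 was lost with the GC trend removed (0.55) and without parental Huh7 replicate 2 (0.99). The 2 genes are close copies with a GC content of 57.0% and 58.0%, and counting could have split reads between them.

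The 3 SULT1C genes lie together on chromosome 2, and in Huh7 all 3 were lower in resistant than in parental samples. SULT1C3 (chr2:108247195-108265351, plus strand) had 1.64, 2.08 and 2.84 FPKM in parental and 0.518, 0.453 and 0.0575 FPKM in resistant Huh7 cells, that is 27 to 42 against 1 to 9 reads a sample, and at most 1 read in any HepG2 sample. All parental Huh7 samples exceeded all resistant ones. It fell by 1.25 on the log2 scale (SE 0.184, adjusted p = 0.000449), and the difference from HepG2 was -1.31 ± 0.217 (adjusted p = 0.000482). In Huh7 it passed the filter through the parental samples only. Because HepG2 had almost no reads, the difference between the lines restates the fall in Huh7. With the GC trend removed the change was -0.70 in Huh7 and -0.69 for the difference, and neither was called.

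SULT1C2 and SULT1C4 were not called in Huh7, since their changes of -0.95 ± 0.112 and -0.87 ± 0.138 stayed within the fold threshold (adjusted p = 0.000153 and 0.000655). For SULT1C2, whose FPKM was 2.62-fold lower, the call depends on the scale: it was made with a pseudocount of 0.1, with limma-voom (-1.39) and without resistant Huh7 replicate 2 (-1.01). Once the GC trend was removed, the Huh7 changes shrank to -0.74 for SULT1C2 and -0.43 for SULT1C4. SULT1C4 averaged 20.9 ± 0.536 FPKM in parental and 11.2 ± 2.09 FPKM in resistant Huh7 cells. In HepG2, where both were under the filter, SULT1C4 had 1.47, 0.842 and 0.79 FPKM in parental and 0.244, 0.17 and 0.16 FPKM in resistant cells. SULT1C2 had 0.435, 0.349 and 0.56 against 0.12, 0.13 and 0.173 FPKM. The fit without a filter gave -0.76 (adjusted p = 0.0347) for SULT1C4 and -0.34 (adjusted p = 0.0391) for SULT1C2.

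SULT1E1, the estrogen sulfotransferase (chr4:69841212-69860152, minus strand), was called for the difference between the lines alone. It had 3.65, 3.78 and 4.08 FPKM in parental and 5.37, 6.82 and 5.28 FPKM in resistant Huh7 cells, and 0.583, 1.09 and 1.46 against 0.452, 0.392 and 0.25 FPKM in HepG2 cells. The samples of resistant cells lay above the parental ones in Huh7 and below them in HepG2. The change in Huh7 was 0.49 ± 0.121 (adjusted p = 0.0065) and the difference between the lines 1.05 ± 0.219 (adjusted p = 0.0019). That difference was 0.95 without resistant Huh7 replicate 2, 0.99 without resistant HepG2 replicate 3 and 0.91 without parental HepG2 replicate 3, and with the GC trend removed SULT1E1 was called in Huh7 itself, at 1.47. SULT1A3, SULT1A4, SULT1B1, SULT2B1 and SULT6B1 averaged under 1 FPKM in each group.

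**Figure D4:**
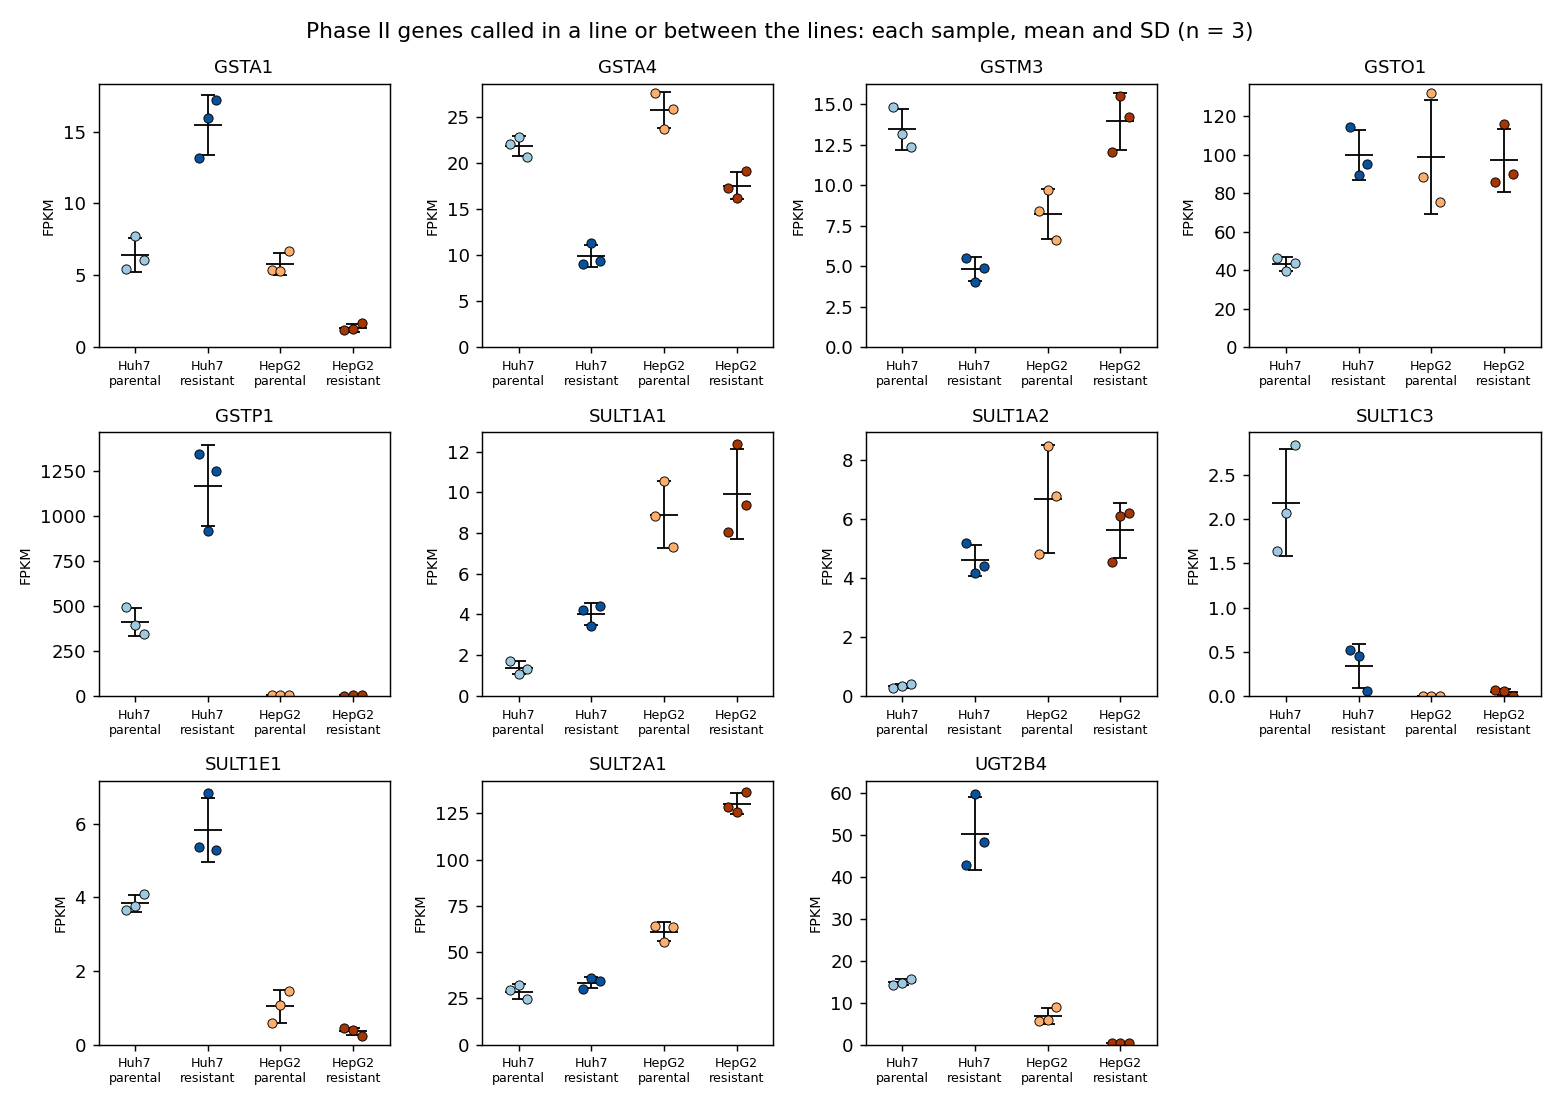
FPKM of the 11 members called in a line or for the difference between lines, each sample as a point with mean and SD (n = 3) and each axis from 0. GSTA1 and UGT2B4 are higher in resistant than in parental Huh7 cells and lower in resistant than in parental HepG2 cells, SULT1A2 rises in Huh7 to near its HepG2 level, and GSTP1 is near 0 on this scale in HepG2.

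Among the glutathione S-transferases, GSTA1, the main alpha class enzyme of hepatocytes, moved in opposite directions. Its level (chr6:52791664-52803910, minus strand) was 5.41, 7.75 and 6.07 FPKM in parental and 13.1, 16.0 and 17.2 FPKM in resistant Huh7 cells. In HepG2 it was 5.38, 5.27 and 6.68 FPKM in parental and 1.16, 1.23 and 1.65 FPKM in resistant cells. From like starting levels, all resistant samples lay above the parental ones in Huh7 and below them in HepG2. The increase in Huh7 was 2.41-fold (1.15 ± 0.149 SE, adjusted p = 0.000237), the decrease in HepG2 4.28-fold (-1.53 ± 0.156, adjusted p = 0.000828) and the difference 2.68 ± 0.211 (adjusted p = 4.02e-06).

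GSTA2, which shares nearly all of the promoter letters printed above, had 6.28, 7.41 and 7.54 FPKM in parental and 6.22, 7.74 and 8.65 FPKM in resistant Huh7 cells. In HepG2 it had 1.51, 2.29 and 3.53 FPKM in parental and 1.89, 1.54 and 3.23 FPKM in resistant cells. The groups overlapped in each line, and the changes were 0.07 ± 0.136 in Huh7 (adjusted p = 0.644) and -0.09 ± 0.263 in HepG2 (adjusted p = 0.83). With the GC trend removed the Huh7 change of GSTA2 was 0.79 (adjusted p = 0.000979), still short of the fold threshold, beside 1.54 for GSTA1. The 2 transcripts are close copies, so that counting could have split reads between them.

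GSTA4, which conjugates the lipid peroxidation product 4-hydroxynonenal (chr6:52977948-52995378, minus strand), was lower in resistant cells of each line. It had 22.0, 22.8 and 20.6 FPKM in parental and 9.01, 11.3 and 9.31 FPKM in resistant Huh7 cells, and 27.5, 23.7 and 25.9 against 17.3, 16.2 and 19.1 FPKM in HepG2 cells. Each line's groups were apart. In Huh7 it was 2.21-fold lower (-1.08 ± 0.113 SE, adjusted p = 9.84e-05), but the change shrank to -0.56 with the GC trend removed and was under the fold threshold with upper-quartile scaling too. In HepG2 it was -0.53 ± 0.135 (adjusted p = 0.0285) and not called. GSTA3 and GSTA5 averaged under 1 FPKM in each group.

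GSTP1, which detoxifies electrophiles and also binds stress kinases (chr11:67583595-67586656, plus strand), had 493, 392 and 345 FPKM in parental and 1342, 913 and 1245 FPKM in resistant Huh7 cells. In HepG2 it had 3.23, 3.11 and 3.76 FPKM in parental and 2.41, 4.01 and 2.58 FPKM in resistant cells. The Huh7 groups were well apart and the HepG2 groups overlapped. The increase in Huh7 was 2.85-fold (1.5 ± 0.197 SE, adjusted p = 0.000252), the change in HepG2 was -0.14 ± 0.181 (adjusted p = 0.594) and the difference 1.65 ± 0.268 (adjusted p = 0.000425). With a GC content of 61.7%, GSTP1 changed by 0.99 in Huh7 once the GC trend was removed, just under the threshold, while the difference between the lines stayed called, at 1.38.

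GSTO1, an omega class enzyme that reduces dehydroascorbate and methylated arsenic (chr10:104235356-104267459, plus strand), rose in Huh7 to its level in HepG2. It had 46.4, 39.3 and 43.6 FPKM in parental and 114, 89.5 and 95.02 FPKM in resistant Huh7 cells, against 88.4, 132 and 75.5 FPKM in parental and 85.7, 116 and 89.8 FPKM in resistant HepG2 cells. The parental Huh7 samples stood below all others. The increase in Huh7 was 2.31-fold (1.18 ± 0.127 SE, adjusted p = 0.000105), and 0.98 with the GC trend removed. The difference between the lines was 1.18 ± 0.275 (adjusted p = 0.00372) and 0.95 without parental HepG2 replicate 2. GSTO2, its neighbour, had 0.438 ± 0.0314 FPKM in parental and 1.23 ± 0.0109 FPKM in resistant Huh7 cells (0.63 ± 0.0966, adjusted p = 0.00053), short of the fold threshold, although its FPKM was 2.81-fold higher and it was called with a pseudocount of 0.1 and with limma-voom (1.49). Once the GC trend was removed, the Huh7 change of GSTO2 was 0.54.

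GSTM3, a mu class enzyme also found in brain and testis (chr1:109733932-109741038, minus strand), moved against GSTA1. It had 14.8, 13.2 and 12.4 FPKM in parental and 5.53, 4.04 and 4.87 FPKM in resistant Huh7 cells. In HepG2 it had 8.40, 9.70 and 6.61 FPKM in parental and 12.1, 15.5 and 14.2 FPKM in resistant cells. No groups overlapped within a line. The decrease in Huh7 was 2.80-fold (-1.32 ± 0.129 SE, adjusted p = 7.29e-05) and held with the GC trend removed (-1.38). The change in HepG2, 0.70 ± 0.171 (adjusted p = 0.0245), was short of the fold threshold, and the difference was -2.02 ± 0.211 (adjusted p = 2.59e-05).

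GSTM4 was higher in resistant Huh7 cells by less than the fold threshold, at 3.87 ± 0.317 against 1.96 ± 0.356 FPKM (0.73 ± 0.126, adjusted p = 0.00104). GSTM1 had 8.08 ± 1.32 against 5.52 ± 0.859 FPKM there (0.48 ± 0.148, adjusted p = 0.0189), and 0.10 with the GC trend removed. The membrane-bound MGST1 and MGST2 ranged from 1.39 to 10.6 FPKM over all samples, and neither passed the test in either line (lowest adjusted p = 0.0518, for MGST1 in Huh7). GSTK1, the mitochondrial and peroxisomal member, overlapped in each line. GSTM2, GSTM5, GSTT2, GSTT4 and MGST3 averaged under 1 FPKM in each group. GSTT4, a theta class gene, had 18 to 23 reads in each resistant HepG2 sample against 1 to 3 in each parental one (0.54 in the fit without a filter, adjusted p = 0.0121).

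The genes that supply cofactors to these enzymes were taken from lists chosen with earlier results of these data known. Of 15 tested genes for glutathione synthesis and turnover, 1 rose and 2 fell in Huh7, where 22.6% of all genes were called, and 3 fell in HepG2, where 6.27% were. The count in Huh7 is thus near that of all genes. SLC7A11, the cystine importer, fell in each line, from 22.7 ± 3.94 to 9.67 ± 1.38 FPKM in Huh7 (-1.15 ± 0.156, adjusted p = 0.000295) and from 62.2 ± 13.8 to 16.9 ± 5.44 FPKM in HepG2 (-1.84 ± 0.236, adjusted p = 0.00193). Its change in Huh7 was -0.10 with the GC trend removed. CTH, which makes cysteine from cystathionine, fell from 42.6 ± 4.60 to 6.08 ± 0.596 FPKM in HepG2 (-2.62 ± 0.144, adjusted p = 6.34e-05). In Huh7 it rose, from 8.04 ± 0.573 to 13.5 ± 2.06 FPKM (0.67 ± 0.127, limma adjusted p = 0.0016). That change was short of the fold threshold but past it with the GC trend removed, at 1.01. The difference between the lines for CTH was 3.30 ± 0.178 (limma adjusted p = 3.34e-07).

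GCLM, the modifier subunit of the rate-limiting ligase, fell from 21.7 ± 3.11 to 9.76 ± 1.34 FPKM in HepG2 (-1.07 ± 0.161, adjusted p = 0.00376), a call lost without parental HepG2 replicate 1. GGT1, which degrades extracellular glutathione, rose in Huh7 from 1.67 ± 0.197 to 7.88 ± 1.31 FPKM (1.72 ± 0.137, adjusted p = 3.27e-05). CHAC2, which degrades it in the cytosol, fell in Huh7 from 5.54 ± 1.10 to 1.78 ± 0.208 FPKM (-1.22 ± 0.147, adjusted p = 0.000168), and its change was -0.22 with the GC trend removed. The medians of this list were -0.08 in Huh7 and -0.10 in HepG2, beside the all-gene medians given above.

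None of the 8 tested genes for UDP-glucuronic acid supply was called in either line with limma, although 6 in Huh7 and 1 in HepG2 had an unadjusted p under 0.05. UGDH, which makes this cofactor, had 123 ± 11.9 against 61.7 ± 3.55 FPKM in resistant and parental Huh7 cells (0.98 ± 0.115, adjusted p = 0.000152), just short of the fold threshold. In HepG2 it had 170.4 ± 17.5 against 271 ± 33.4 FPKM (-0.66 ± 0.156, adjusted p = 0.0216). None of 7 tested genes for PAPS supply in Huh7 or 6 in HepG2 was called, nor any of 8 and 7 for the reversal of conjugation. At an unadjusted p under 0.05 there were 3 and 2 genes of PAPS supply and 4 and 3 of the reversal of conjugation in Huh7 and HepG2. Of 9 other phase II transferases tested in each line, ACSM1 (-1.60 ± 0.146, adjusted p = 5.42e-05) and ACSM3 (-1.60 ± 0.116, adjusted p = 2.38e-05), acyl-CoA synthetases that precede glycine conjugation, fell in Huh7 and none was called in HepG2, where 2 had an unadjusted p under 0.05.

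Of the regulators, 20 were tested in Huh7, where NR1I2, MAFG and FOXA3 rose, and 22 in HepG2, where MAFF and CEBPB fell. Over all genes 22.6% were called in Huh7 and 6.27% in HepG2, and nothing particular to the list is read from these counts. NR1I2, the pregnane X receptor, rose from 0.696 ± 0.0916 to 2.45 ± 0.236 FPKM (1.02 ± 0.109, adjusted p = 0.000103), a call lost without resistant Huh7 replicate 2 or parental Huh7 replicate 1. FOXA3, a liver forkhead factor, rose from 24.8 ± 5.69 to 62.4 ± 6.98 FPKM (1.32 ± 0.169, adjusted p = 0.000225), and MAFG, a partner of NRF2 at antioxidant response elements, from 4.93 ± 0.755 to 11.4 ± 1.03 FPKM (1.07 ± 0.126, adjusted p = 0.000151). All 3 fell under the fold threshold with the GC trend removed, at 0.67, 0.81 and 0.52.

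In HepG2, MAFF, a related small MAF factor, fell from 5.26 ± 1.35 to 1.04 ± 0.137 FPKM (-1.59 ± 0.189, adjusted p = 0.00147). CEBPB, a C/EBP family factor, fell from 43.7 ± 7.50 to 18.7 ± 1.69 FPKM (-1.17 ± 0.161, adjusted p = 0.00255). NFE2L2, which encodes NRF2, was not called in either line, at -0.53 ± 0.117 in Huh7 (adjusted p = 0.00372) and -0.32 ± 0.227 in HepG2 (adjusted p = 0.344). The medians of the regulators were 0.43 in Huh7 and -0.25 in HepG2.

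**Figure D5:**
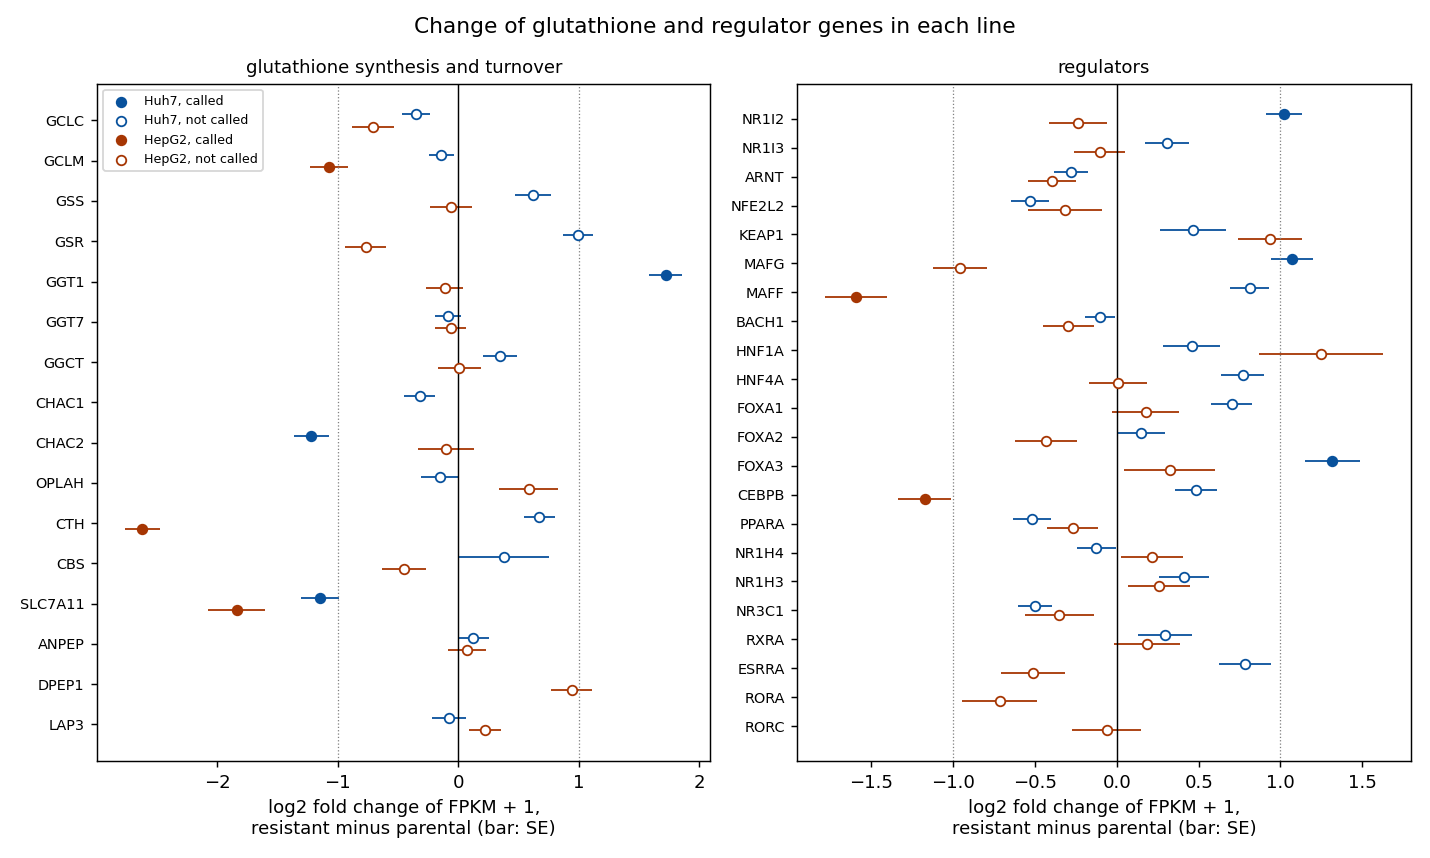
Log2 fold change of FPKM + 1 with its standard error for the tested genes of glutathione synthesis and turnover (left) and the regulators (right), resistant minus parental, in Huh7 (blue) and HepG2 (orange). Filled points are called. SLC7A11 lies left of 0 in each line, and CTH is at -2.62 in HepG2 and at 0.67 in Huh7. MAFG (called in Huh7) and MAFF (called in HepG2) lie right of 0 in Huh7 and left of it in HepG2.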

How the data were processed

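RNA was sequenced from 12 samples, 3 in each of 4 groups taken from the sample labels. The deposited tables hold 1 value per gene; the authors' unit is not stated, and the values behave as FPKM (or RPKM). The submitters' processing notes name bcl2fastq and GRCh38; aligner, counter and annotation are not given in the sources used here. The library kit as labelled does not mark strand, so that overlapping antisense transcripts cannot be told apart. In 6896 genes with a single exon, value times exon length fell within 0.05 of a whole number of reads for 99.5% to 99.6% of values, which gave the reads per sample. Exon lengths, GC content and positions came from GENCODE release 29 (GRCh38), in which all 50 members were found, and long minor isoforms lower the FPKM of a gene.

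Values were read with Python 3.11.15 and pandas 2.3.3 and fitted with limma 3.58.1 in R 4.3.3 on log2(FPKM + 1), with a variance trend on mean expression, keeping genes that reached 1 FPKM in 3 or more of those samples. Each line was fitted on its 6 samples; the difference between lines and the parental comparison used all 12 with 1 coefficient per group. The design had left the test open between counts and normalized values, and these are normalized. P-values were two-sided and adjusted by Benjamini-Hochberg over all genes tested; genes with an adjusted p under 0.05 and a log2 fold change beyond 1 were called, as in the study's methods. The fit was tested on simulated data with known changes.

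Members and gene lists were chosen with earlier results of these data known, and 1 listed gene is not reported here. Named with the value of every sample were members called in a line or for the difference; named by group means were members of at least 10 FPKM in a group, UGT1A9, GSTP1 and GSTM1; others were given by counts, or by name where under 1 FPKM everywhere; of the lists, called genes were named, and UGDH and NFE2L2 were chosen after their values were seen, as were GSTA2, UGT1A1, UGT1A3, UGT1A6 to UGT1A8, UGT1A10, UGT2B11, SULT1C2, GSTO2, GSTM4, GSTT4, GSTK1, MGST1 and MGST2. Alternatives were other scalings, pseudocount, filters, limma-voom on reads calculated back, no variance trend, removal of a lowess GC trend (span 0.3), other thresholds, a replicate block, a joint fit and leaving out each sample, in which the genes tested were kept. Reads carry no molecular identifiers, so amplified copies cannot be told from separate molecules, and counting error is only a lower bound on the error of a read count.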

Additional observations from a re-analysis of the deposited data

Results flagged for a closer look

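The change with resistance differed between Huh7 and HepG2 for 8 of 24 members tested in the test of the difference itself. This test was limma with an adjusted p under 0.05 and a log2 difference beyond 1. Called were 33.3% of the members tested and 28.8% of all genes tested. Nothing particular to the members is read from the count. The change in Huh7 exceeded that in HepG2 by 4.15 for UGT2B4, 2.68 for GSTA1, 2.26 for SULT1A2, 1.65 for GSTP1, 1.18 for GSTO1 and 1.05 for SULT1E1 on the log2 scale. It was below that in HepG2 for GSTM3 (-2.02) and SULT1C3 (-1.31). SULT1C3 had at most 1 read in any HepG2 sample, so its difference restates its fall in Huh7. Its call was lost with the GC trend removed (-0.69). The call of GSTO1 was lost without parental HepG2 replicate 2 (0.95), and that of SULT1E1 in 3 fits without a sample (down to 0.91).

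One row left out as a pseudogene, UGT2B27P (chr4:69004862-69020414), held a signal above that of the control samples: it averaged 0.926 ± 0.139 FPKM in resistant and 0.121 ± 0.0225 FPKM in parental Huh7 cells, without overlap. In HepG2 its groups overlapped, at 0.893 to 2.83 FPKM in parental and 2.03 to 2.37 FPKM in resistant cells.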

How the results depend on the processing

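The number of members called kept within 1.5 times of its reported value under most alternatives. With no minimum fold, 11 rose and 5 fell in Huh7, 2 rose and 4 fell in HepG2, and 6 were lower for the difference. With the GC trend removed, 1 member fell in Huh7, 1 was lower for the difference and 5 were higher in parental Huh7. Removing it ended the Huh7 calls of GSTA4, GSTO1, GSTP1, SULT1A1 and SULT1C3. UGT2B11 (1.60) and SULT1E1 (1.47) were then called higher in Huh7, so that a like count did not mean the same members. Upper-quartile and median-ratio scaling left 0 members called higher in HepG2 by limma, SULT2A1 staying under the fold threshold at 0.94 and 0.97. With at least 10 reads in every sample, 1 was lower for the difference and 5 were higher in parental Huh7, as fewer genes were tested. Leaving out a sample gave 5 to 6 higher and 3 to 4 lower in Huh7, 1 higher and 2 lower in HepG2, 5 to 7 higher and 2 lower for the difference, and 8 to 9 higher and 7 to 8 lower in parental Huh7. Upper-quartile scaling gave sums of resistant over parental cells of 1.12 (SULT), 1.04 (GSTA) and 2.60 (GSTO) in Huh7 and 1.67 (SULT) in HepG2, where median-ratio scaling gave 1.70. Over all genes, the share of calls that were higher went from 38.0% to 53.3% in Huh7, from 52.5% to 36.8% in HepG2 and from 36.7% to 57.2% for the difference with upper-quartile scaling.

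The direction turned for GSTA2 in both lines on leaving out a sample (-0.021 to 0.19 in Huh7, -0.30 to 0.13 in HepG2), for the difference of GSTA4 with the GC trend removed (0.027) and for the difference of SULT1C2 with limma-voom (0.27), none of them called; the cause was not tested. As labelled, samples with the same replicate number share only that number. Their deviations correlated at 0.08, 0.06 and -0.23 in Huh7 and 0.25, 0.44 and -0.01 in HepG2. Samples of different number correlated at -0.33 to 0.28 in Huh7 and -0.42 to 0.21 in HepG2. With the replicate block 6 members rose and 3 fell in Huh7 and 1 rose and 2 fell in HepG2. Over all genes in HepG2, 1366 higher and 991 lower had a limma adjusted p under 0.05 without the block. With it there were 2111 and 1307. What else samples of a number may share was not tested. With 3 samples a group, small changes of genes under 1 FPKM could not be resolved.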
